A study of Mus musculus with 8 samples.

Results

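This account follows 10 genes of the blood vessel wall through the dorsal forebrain of mouse embryos. Of these genes, 8 mark endothelial cells (Pecam1, Kdr, Flt1, Tie1, Tek, Cldn5, Esam and Egfl7) and 2 mark the pericytes around them (Pdgfrb and Vtn). They were listed by gene symbol, and all 10 were found among the 43629 gene IDs listed. Male embryos at E12.5, of a mixed background with C57BL/6J, gave 4 samples of each genotype, called Mut_295, Mut_317, Mut_337 and Mut_340 in Sufu-cKO and Cont_294, Cont_345, Cont_365 and Cont_370 in control. The Sufu-cKO genotype was Emx1-cre/+;Sufu-fl/fl. Controls were Sufu-fl/fl or Sufu-fl/+, and the labels do not say which control had which genotype. Emx1-cre acts in progenitors of the dorsal telencephalon and in the cells they give rise to. Blood vessels grow into the forebrain from outside the neural tube, so the cre is not one that targets endothelial cells. The labels do not say whether each sample was 1 embryo, and no vascular preparation or count of vessels was among the data used here. RNA was sequenced from the whole tissue piece, in which fewer vessel cells and less vessel RNA per cell cannot be told apart.

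In the embryonic forebrain, vessels enter from a plexus on the pial surface and sprout toward the ventricle, guided by vascular endothelial growth factor (VEGF) from neural progenitors. Endothelial cells read VEGF through the receptor VEGFR2, made from Kdr, while VEGFR1, made from Flt1, binds the same ligand tightly and damps the signal. The receptor TIE2, made from Tek, and its partner TIE1 take part in vessel maturation. Sprouts attract pericytes by releasing PDGF-B, which acts on the receptor made from Pdgfrb. WNT7A and WNT7B from neural progenitors drive both vessel ingrowth and the first steps of the blood-brain barrier.

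Sequence upstream of the start site is shown for 3 of these genes. The RNA of the first pair passed the test between genotypes, and only the third held a match to a searched ETS form. RefSeq promoter windows on GRCm38.p6 were matched for 7 of the 10 genes, with 9 start sites in all. Each window is the 250 bases before a start site, 5′ to 3′ on the strand of the gene. The Vtn window is chr11:78498870-78499119 on the plus strand, the Kdr window is chr5:75978456-75978705 on the minus strand, and the Egfl7 window is chr2:26580833-26581082 on the plus strand. Capitals mark the ETS form CAGGAAG or its reverse complement.
Vtn: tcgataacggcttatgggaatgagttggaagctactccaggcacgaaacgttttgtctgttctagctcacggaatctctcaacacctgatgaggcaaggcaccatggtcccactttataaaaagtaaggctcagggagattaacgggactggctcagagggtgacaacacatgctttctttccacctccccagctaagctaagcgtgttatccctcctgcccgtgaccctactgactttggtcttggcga
Kdr: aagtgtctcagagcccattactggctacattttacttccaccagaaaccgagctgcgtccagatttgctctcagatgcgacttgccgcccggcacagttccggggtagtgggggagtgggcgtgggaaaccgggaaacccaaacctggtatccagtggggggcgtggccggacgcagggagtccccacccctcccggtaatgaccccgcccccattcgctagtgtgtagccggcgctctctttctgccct
Egfl7: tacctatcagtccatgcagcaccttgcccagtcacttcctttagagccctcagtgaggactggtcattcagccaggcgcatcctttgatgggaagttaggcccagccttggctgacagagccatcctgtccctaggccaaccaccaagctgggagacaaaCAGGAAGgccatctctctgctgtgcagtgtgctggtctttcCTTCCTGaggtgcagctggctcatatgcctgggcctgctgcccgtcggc

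ETS factors bind GGAA cores and act at many endothelial genes, and GLI factors are the transcription factors of the hedgehog pathway that SUFU holds back. The letters searched, on both strands, were the ETS forms CCGGAAG and CAGGAAG and the GLI form ACCACCC. An ETS form was found in 2 of the 9 windows, both of Egfl7, and the GLI form in 0. Among all 32851 promoter windows of the same length, 17% held an ETS form (6.91% CCGGAAG and 10.8% CAGGAAG) and 3.92% held the GLI form. In the Egfl7 window above, the matches begin 90 and 49 bases before the start site. These matches describe letters in short windows and no binding was measured.

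Egfl7 also hosts the microRNA gene Mir126a, whose product is among the most abundant microRNAs of endothelial cells. Its mature form lies at chr2:26591402-26591423 on the plus strand of GRCm38.p6, with the seed (bases 2 to 8) in capitals.
mmu-miR-126a-3p: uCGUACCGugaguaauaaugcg
Mir126a had 0 counts in every sample of these libraries, which were made from polyadenylated RNA. It shares 73 exon bases with Egfl7 on the same strand, and how reads in shared bases were counted is not known. The counts of Egfl7 are taken here as those of the host transcript, and the microRNA was not measured.

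Total counts per sample were between 27514357 and 34878838. Sufu RNA averaged 40.6 ± 4.64 CPM in Sufu-cKO and 112 ± 9.13 CPM in control (SD, n = 4 each), with no overlap. Levels are in CPM, which relate a count to the size of its library and are scaled here for library composition. With edgeR's quasi-likelihood test across 15382 genes, 1689 were called at a Benjamini-Hochberg adjusted p under 0.05, which is 11% of those tested. Of these, 867 were lower and 822 higher in Sufu-cKO. The median log2 fold change over all genes was 0.0071. One library stood apart in its meningeal RNA. Genes of meningeal fibroblasts summed to 1646 CPM in Mut_337, against 759 to 793 CPM in Mut_295, Mut_317 and Mut_340 and 933 to 1006 CPM in control. Another, Mut_340, held 96.9 CPM of choroid plexus genes, against 267 to 299 CPM in the remaining Sufu-cKO libraries and 537 to 819 CPM in control. Genes of the progenitors that make up much of the tissue were called in both directions. Pax6, Sox2, Vim and Nes were called higher, and Emx1, Emx2, Lhx2 and Neurog2 were called lower. Sox2, a stem cell transcription factor, averaged 315.6 ± 21.4 CPM in Sufu-cKO and 210.7 ± 20.4 CPM in control, and Pax6, a transcription factor of dorsal progenitors, 346.6 ± 19.2 CPM in Sufu-cKO and 238.5 ± 17.9 CPM in control (SD, n = 4 each). Vim, the intermediate filament vimentin, rose by 0.43 on the log2 scale, and Emx2, a transcription factor that patterns the cortex, fell by 0.72, to 121.9 ± 8.47 CPM in Sufu-cKO, against 200.6 ± 19.6 CPM in control.

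All 10 vessel genes were read in every sample, with between 297 and 3572 counts each, and all 10 passed the low-count filter. With edgeR, 2 of the 10 genes were called lower in Sufu-cKO, the pericyte gene Vtn and the VEGF receptor gene Kdr, and 0 were called higher, also at an unadjusted p under 0.05 and by DESeq2 and limma-voom. The other 8 were not called, with adjusted p between 0.127 and 0.572. Over all tested genes, 5.64% were called lower. Every one of the 10 log2 fold changes was below 0, against 48.2% of all tested genes, with a median of -0.27. An unadjusted p under 0.05 with a value below 0 was found for 5 of the 10, against 10.9% of all genes. Most of these genes are read from the same endothelial cells of the same samples, so their signs are not independent of each other. The summed level of the 8 endothelial genes was 251, 247, 266 and 228 CPM in Mut_295, Mut_317, Mut_337 and Mut_340, and 308, 269, 304 and 288 CPM in Cont_294, Cont_345, Cont_365 and Cont_370. The highest Sufu-cKO sum, that of Mut_337, lay just under the lowest control sum, that of Cont_345.

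**Figure D1:**
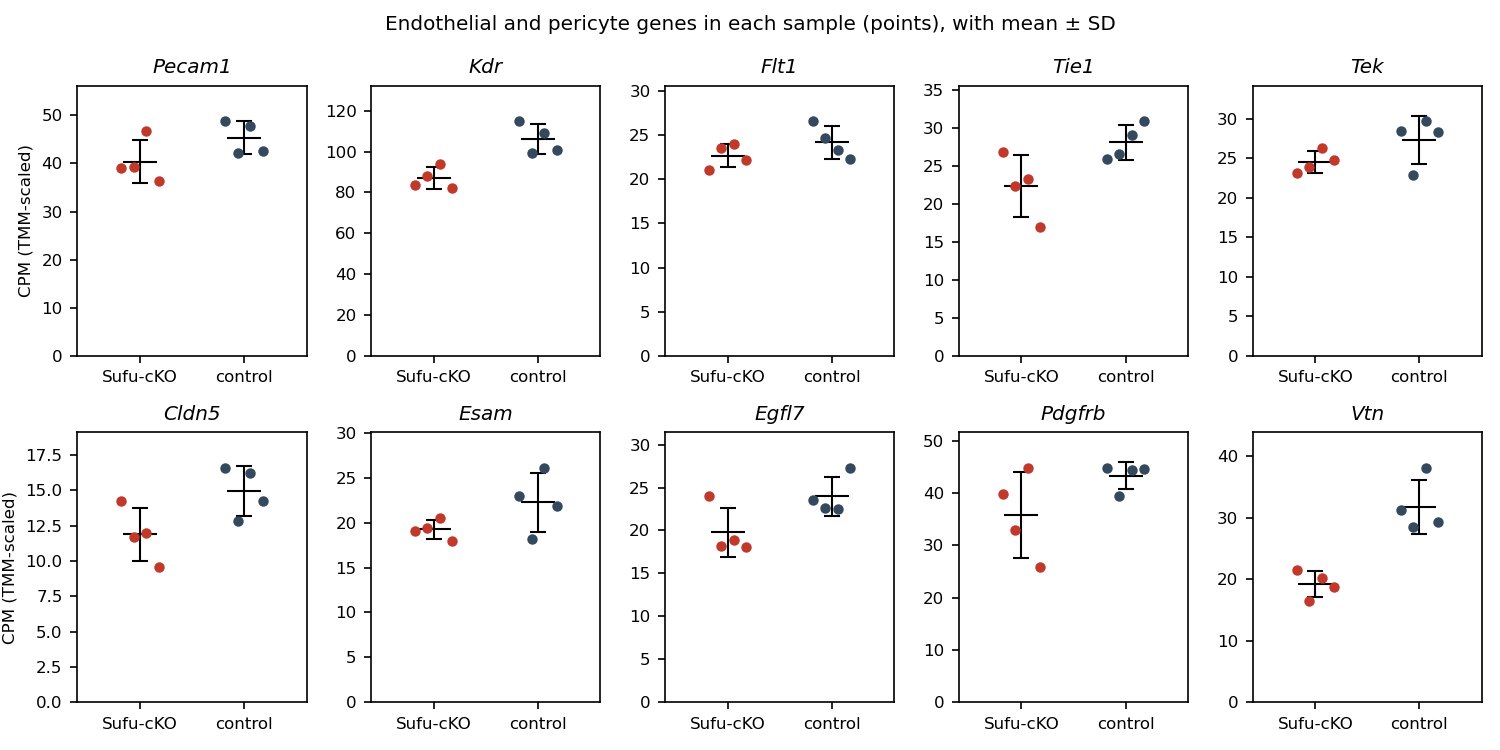
CPM of the 10 vessel genes (vertical axes, starting at 0) in each of the 4 Sufu-cKO samples and the 4 control samples, with points for samples and lines for the mean ± SD. The groups separate for Kdr (82.0 to 93.9 CPM in Sufu-cKO, 99.2 to 115 CPM in control) and for Vtn (16.5 to 21.6 CPM in Sufu-cKO, 28.5 to 38.1 CPM in control) and overlap for the other 8.

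Kdr (ENSMUSG00000062960, GRCm38 chromosome 5, 75932827 to 75978458, minus strand) encodes VEGFR2, the main signalling receptor for VEGF in endothelial cells. It had 83.6, 88.1, 93.9 and 82.0 CPM in Mut_295, Mut_317, Mut_337 and Mut_340, and 115, 99.2, 109 and 101 CPM in Cont_294, Cont_345, Cont_365 and Cont_370. Every Sufu-cKO sample was below every control sample, as was so in the lower direction for 7.86% of all tested genes. The mean was 86.9 ± 5.33 CPM in Sufu-cKO and 106 ± 7.32 CPM in control (SD, n = 4 each). Kdr fell by 18% in Sufu-cKO, or -0.29 as a log2 fold change (SE 0.066, 95% interval -0.43 to -0.14, edgeR adjusted p = 0.0150). The call held with each sample left out in turn, with adjusted p between 0.0108 and 0.0498, the highest being without Cont_294. In the authors' deposited table the fold of Kdr was 0.819 with a false discovery rate of 0.0576, which is above the threshold used here.

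Flt1 (ENSMUSG00000029648, chromosome 5, 147561604 to 147726011, minus strand) encodes VEGFR1, the decoy-like receptor for the same ligand. It had 21.1, 23.5, 23.9 and 22.1 CPM in the 4 Sufu-cKO samples, and 26.6, 24.7, 23.3 and 22.2 CPM in the 4 control samples, in the sample order used for Kdr and kept for the genes that follow. The ranges overlapped, and the Sufu-cKO values lay within or just under the control range. Its log2 fold change was -0.093 (SE 0.082, 95% interval -0.27 to 0.084, adjusted p = 0.572). The lower end of that interval is close to the log2 fold change of Kdr. The pair was also compared within samples, as planned.

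The ratio of Kdr to Flt1 in CPM does not depend on how the libraries were scaled. It was 3.97, 3.75, 3.92 and 3.71 in Sufu-cKO, against 4.33, 4.02, 4.69 and 4.54 in control. The groups did not overlap, with the Sufu-cKO mean at 3.84 ± 0.128 and the control mean at 4.39 ± 0.292 (SD, n = 4 each). The log2 difference was -0.19, with p = 0.0286 by a 2-sided exact permutation test over the samples. That is the smallest p that 4 samples against 4 can give, and after adjustment over the 4 ratios computed it was 0.114.

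Tie1 and Tek encode a receptor pair of the angiopoietin system, in which TIE2, the product of Tek, binds angiopoietins and TIE1 modulates it. Tie1 (ENSMUSG00000033191, chromosome 4, 118471191 to 118490061, minus strand) had 26.9, 22.5, 23.4 and 17.0 CPM in Sufu-cKO and 25.9, 26.6, 29.2 and 30.9 CPM in control. Only Mut_295 reached into the control range, and Mut_340 was the lowest of the 8. The log2 fold change of Tie1 was -0.33 (SE 0.12, 95% interval -0.60 to -0.059, adjusted p = 0.127), so it was not called. Without Mut_295 it was -0.43 with an adjusted p of 0.0398, and without Mut_340 it was -0.22 with an adjusted p of 0.196.

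Tek (ENSMUSG00000006386, chromosome 4, 94739289 to 94874976, plus strand) had 23.1, 23.9, 26.3 and 24.8 CPM in Sufu-cKO and 28.4, 22.9, 29.7 and 28.3 CPM in control. Cont_345 lay below all Sufu-cKO samples and the other 3 control samples lay above them. Its log2 fold change was -0.16 (SE 0.090, 95% interval -0.35 to 0.041, adjusted p = 0.352). The ratio of Tek to Tie1 averaged 1.13 ± 0.252 in Sufu-cKO and 0.972 ± 0.105 in control. The ranges of this ratio overlapped (exact permutation p = 0.343, adjusted over the 4 ratios 0.4).

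Genes of endothelial contacts and adhesion were next. Pecam1 (ENSMUSG00000020717, chromosome 11, 106654217 to 106750628, minus strand) encodes CD31, an adhesion molecule of endothelial junctions that is also made by some blood cells. It had 39.0, 39.3, 46.8 and 36.4 CPM in Sufu-cKO and 48.8, 42.1, 47.8 and 42.6 CPM in control. Mut_337 lay inside the control range, and the other 3 Sufu-cKO samples lay under it. The log2 fold change was -0.17 (SE 0.086, adjusted p = 0.286).

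Esam (ENSMUSG00000001946, chromosome 9, 37528078 to 37538319, plus strand), an immunoglobulin-type adhesion molecule of tight junctions, had 19.1, 19.4, 20.5 and 17.9 CPM in Sufu-cKO and 22.9, 18.1, 26.1 and 21.9 CPM in control. As with Tek and Pecam1, Cont_345 was the lowest control sample, and here it fell among the Sufu-cKO samples. Its log2 fold change was -0.21 (SE 0.11, adjusted p = 0.270). Cldn5 (ENSMUSG00000041378, chromosome 16, 18776847 to 18778260, plus strand) encodes claudin 5, the most abundant tight junction claudin of brain endothelium. It had 14.2, 11.7, 12.02 and 9.59 CPM in Sufu-cKO and 16.6, 12.8, 16.2 and 14.3 CPM in control. Mut_295 alone lay inside the control range. Cldn5 had a log2 fold change of -0.33 (SE 0.13, 95% interval -0.62 to -0.050), the lowest among the endothelial genes, and an adjusted p of 0.141.

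Egfl7 (ENSMUSG00000026921, chromosome 2, 26580014 to 26593120, plus strand) encodes a secreted protein that endothelial cells lay into their matrix. It had 24.0, 18.2, 18.8 and 18.1 CPM in Sufu-cKO and 23.5, 22.6, 22.5 and 27.3 CPM in control. Mut_295 stood far above the other 3 Sufu-cKO samples, which all lay under the control range. With all samples the log2 fold change was -0.28 (SE 0.11, 95% interval -0.51 to -0.043, adjusted p = 0.139). Without Mut_295 it was -0.39 with an adjusted p of 0.0198. Exons of Egfl7 share 64 bases with Agpat2 on the opposite strand, which is 1.79% of its exon length, and Agpat2 had 48 to 106 counts per sample. They also share 264 bases (7.37%) with Gm20532 on the same strand, which had 0 counts in every sample. The strand setting of the counting is not given in the sources used here.

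Vtn (ENSMUSG00000017344, chromosome 11, 78499091 to 78502324, plus strand) encodes vitronectin, an adhesive glycoprotein of blood and matrix whose RNA in the brain is found mainly in pericytes. It had 21.6, 16.5, 20.1 and 18.8 CPM in Sufu-cKO, against 31.2, 28.5, 38.1 and 29.3 CPM in control. The groups were well apart, with 21.6 CPM as the highest Sufu-cKO value and 28.5 CPM as the lowest control value. Vtn fell by 39.4%, to 19.2 ± 2.16 CPM in Sufu-cKO, against 31.8 ± 4.39 CPM in control (SD, n = 4 each). The log2 fold change was -0.72 (SE 0.11, 95% interval -0.96 to -0.48, edgeR adjusted p = 0.00119). Leaving out 1 sample at a time gave values between -0.78 and -0.63, with adjusted p between 0.00151 and 0.00506. In the authors' deposited table the fold of Vtn was 0.605 with a false discovery rate of 1.27e-05.

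Pdgfrb (ENSMUSG00000024620, chromosome 18, 61045150 to 61085061, plus strand) encodes the receptor through which PDGF-B recruits pericytes, and it is also made by meningeal fibroblasts. It had 39.8, 33.0, 44.8 and 25.9 CPM in Sufu-cKO and 44.8, 39.4, 44.4 and 44.6 CPM in control. The Sufu-cKO values were spread widely, from well under the control range in Mut_340 to its upper edge in Mut_337. The mean was 35.9 ± 8.22 CPM in Sufu-cKO and 43.3 ± 2.59 CPM in control (SD, n = 4 each). A log2 fold change of -0.27 was found (SE 0.14, 95% interval -0.59 to 0.049, adjusted p = 0.309). Without Mut_337 the value was -0.41 (adjusted p = 0.0735), and without Mut_340 it was -0.15 (adjusted p = 0.455). Mut_337 is the library with 1646 CPM of meningeal fibroblast genes, and the part of those cells in its Pdgfrb level was not tested.

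Within samples, the ratio of Vtn to Pdgfrb was 0.542, 0.501, 0.449 and 0.724 in Sufu-cKO, against 0.698, 0.723, 0.858 and 0.656 in control. The ratio in Mut_340, where Pdgfrb was lowest, lay within the control range, and the other 3 Sufu-cKO samples lay under that range. The log2 difference was -0.42 (exact permutation p = 0.114, adjusted over the 4 ratios 0.229). Pdgfrb over Pecam1, a comparison of the pericyte receptor with an endothelial gene, averaged 0.883 ± 0.136 in Sufu-cKO and 0.957 ± 0.0597 in control. Its ranges overlapped (exact permutation p = 0.4).

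**Figure D2:**
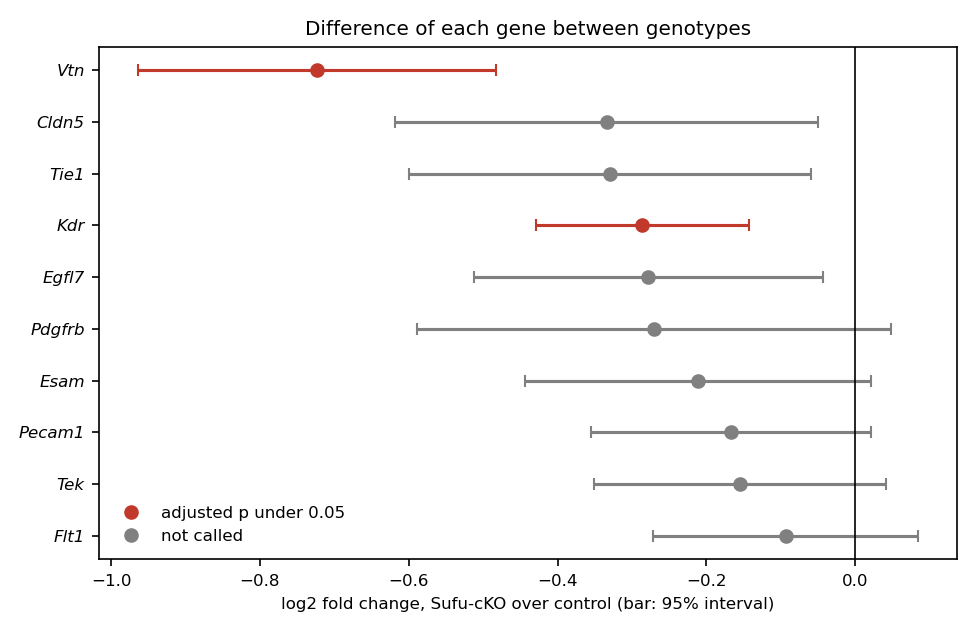
Log2 fold change of each vessel gene, Sufu-cKO over control (horizontal axis), with the 95% interval from the edgeR fit, ordered from the lowest value at the top. All 10 points lie below 0. Intervals of Vtn, Cldn5, Tie1, Kdr and Egfl7 lie wholly below 0, and the 2 genes in red, Vtn and Kdr, have an adjusted p under 0.05.

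The plot of fold changes with intervals also shows that Kdr was called at a smaller difference than Cldn5 or Tie1. Its interval was narrower, and it had the most counts of the 10 genes. For the 8 endothelial genes the log2 fold changes lay between -0.33 and -0.093, with a median of -0.24. That range does not include the -0.72 of Vtn, and no test of Vtn against the endothelial genes was made. In the authors' deposited table all 10 folds were under 1, and 1 of the 10, Vtn, had a false discovery rate under 0.05, against 5.78% of the 25299 genes listed there.

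Per kilobase of exon, which allows levels to be set side by side between genes, Kdr and Vtn were the most abundant in both genotypes. In Sufu-cKO, Kdr had 9.62 ± 0.590 CPM per kb and Vtn 9.48 ± 1.06, which do not differ beyond their spread. In control, Vtn came first at 15.7 ± 2.16 CPM per kb, followed by Kdr at 11.7 ± 0.811 and Cldn5 at 10.6 ± 1.24. Vtn therefore led Kdr in control samples and stood level with it in Sufu-cKO samples. Cldn5 had 8.39 ± 1.34 CPM per kb in Sufu-cKO.

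On the same scale came Esam (6.71 ± 0.367 CPM per kb in Sufu-cKO and 7.76 ± 1.148 in control), Pdgfrb (6.55 ± 1.501 in Sufu-cKO and 7.90 ± 0.473 in control) and Pecam1 (6.48 ± 0.723 in Sufu-cKO and 7.28 ± 0.553 in control), which did not differ from each other beyond their spread. Egfl7 followed at 5.52 ± 0.786 CPM per kb in Sufu-cKO and 6.69 ± 0.635 in control. Tek and Tie1 were close to each other, Tek at 5.21 CPM per kb in Sufu-cKO and 5.80 in control, and Tie1 at 4.56 in Sufu-cKO and 5.73 in control. Flt1 was the least abundant per kb at 1.68 in Sufu-cKO and 1.79 in control. Exon lengths are merged over all annotated isoforms (GENCODE M21), so a gene with many isoforms, such as Flt1 with 13.5 kb of merged exon, reads low on this scale.

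Samples of 1 genotype differed among themselves in a shared way. Over the 8 endothelial genes, Mut_340 was the lowest Sufu-cKO sample for 6 genes and Mut_337 the highest for 5, with Mut_295 the highest for the other 3. Among controls, Cont_345 was the lowest for 5 genes and Cont_294 the highest for 4. Centred within each genotype, the mean log2 CPM of the 8 genes was 0.068, -0.0091, 0.083 and -0.14 in Sufu-cKO and 0.062, -0.13, 0.066 and 0.0050 in control. The spread within a genotype was thus of the same order as the difference of most single endothelial genes between genotypes.

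Genes whose centred log2 CPM followed that endothelial mean most closely were led by Klf10, a TGF-beta inducible transcription factor (r = 0.98), then Kank3 (r = 0.97) and Gja5, the arterial endothelial connexin 40 (r = 0.96). Likeness is Pearson's r over the 8 samples among 13628 tested genes with at least 1 CPM, and is a description of these samples. The 8 endothelial genes were left out of this ranking. None of the 15 genes at the top belonged to a vessel list. With the 8 included, 230 genes (1.69%) had r above 0.8. Of the 8 endothelial genes themselves, 2 had r above 0.8, with a median of 0.705. Each of them is part of the mean it was set against, which raises its r. A high r in so few samples was thus not confined to the listed vessel genes. Klf10 was the only one of the 15 that was called (log2 fold change -0.40, adjusted p = 0.0326). The median r was 0.58 for 26 other endothelial genes and 0.61 for basement membrane genes, against 0.012 for all genes, while choroid plexus genes, which are not vessel genes, had a median of 0.68. Nearest to Pdgfrb were Arap1, Capn1, 9930012K11Rik, Fes and Ltbr, with r between 0.96 and 0.98. Nearest to Vtn were Anapc16, Psme1, Mocs3, Usmg5 and Gpx4, with r between 0.95 and 0.98, and none of these 10 was called.

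A wider set of endothelial genes held 5 called lower and 0 called higher of 26 tested (10 and 0 at an unadjusted p under 0.05), with a median log2 fold change of -0.19 and 24 of 26 values below 0. Among all tested genes, 5.64% were called lower and 48.2% had values below 0. Lmo2, a transcription cofactor of endothelial and blood progenitors, fell furthest of the 26, and the cell type in which its RNA differed was not measured. It had 23.9, 27.3, 28.2 and 21.9 CPM in Sufu-cKO, against 43.3, 41.3, 49.9 and 57.7 CPM in control, without overlap (log2 fold change -0.93, SE 0.12, edgeR adjusted p = 0.000338). The other 4 were Sox7, an endothelial transcription factor (log2 fold change -0.41), Clec14a, a surface glycoprotein of endothelium (-0.43), Cdh5, the adherens junction protein VE-cadherin (-0.30), and Ramp2, a co-receptor for adrenomedullin (-0.40).

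These 4 calls were close to the threshold, with adjusted p between 0.0284 and 0.0483. Leaving out single samples gave counts of 1 to 4 over the list, with 1 without Mut_317, Mut_340, Cont_365 or Cont_370, 2 without Mut_295 or Cont_294, and 3 without Cont_345. Lmo2 was called in all 8 of those fits. With all samples, the list's count was 2 without robust estimation and 3 with library totals alone or limma-voom. Cdh5 and Ramp2 were not called in any of these 3 settings, and Clec14a was not called without robust estimation. Endoglin, the TGF-beta co-receptor made from Eng, had 26.9 ± 4.26 CPM in Sufu-cKO and 27.4 ± 2.96 CPM in control (log2 fold change -0.032, adjusted p = 0.920). The ETS factor Erg had 9.54 ± 2.06 CPM in Sufu-cKO and 8.95 ± 1.65 CPM in control (log2 fold change 0.093, adjusted p = 0.813). Eng and Erg are named here after their values were seen, as endothelial genes close to no difference.

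Among 17 tested mural genes other than Pdgfrb and Vtn, 2 were called lower and 0 higher (6 and 0 at an unadjusted p under 0.05), with a median of -0.23. Of the 17 values, 14 were below 0, against 48.2% of all tested genes, of which 5.64% were called lower. Mcam, the adhesion molecule CD146 of pericytes and endothelium, had 56.9, 56.4, 57.9 and 49.1 CPM in Sufu-cKO, against 85.8, 81.8, 93.9 and 76.0 CPM in control. Notch3, the mural cell Notch receptor that neural progenitors also make, had 99.9, 96.0, 90.8 and 65.0 CPM in Sufu-cKO, against 118, 150, 125 and 132 CPM in control. Neither gene overlapped between genotypes. The log2 fold change was -0.61 for Mcam (SE 0.077, adjusted p = 0.000304) and -0.57 for Notch3 (SE 0.13, adjusted p = 0.0191, and 0.0516 without Cont_345). Rgs5, Abcc9 and Kcnj8 are named here after their values were seen, and none of the 3 was called. Rgs5, a regulator of G protein signalling, had 38.8 ± 1.04 CPM in Sufu-cKO and 41.8 ± 5.62 CPM in control (adjusted p = 0.539). Abcc9 and Kcnj8, subunits of 1 potassium channel of pericytes, had log2 fold changes of -0.16 (adjusted p = 0.407) and -0.45 (adjusted p = 0.124). The Kcnj8 values did not overlap, with 4.43 CPM as the highest in Sufu-cKO and 4.67 CPM as the lowest in control. Acta2, Tagln and Myl9, also named with their values known, were above 0 (log2 fold changes 1.62, 0.73 and 0.37) and not called. They were highest in Mut_337, at 38.0, 15.6 and 22.4 CPM. The other Sufu-cKO samples had at most 4.39 CPM of Acta2, 2.81 CPM of Tagln and 7.35 CPM of Myl9. Vtn was not tested against any of these genes.

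**Figure D3:**
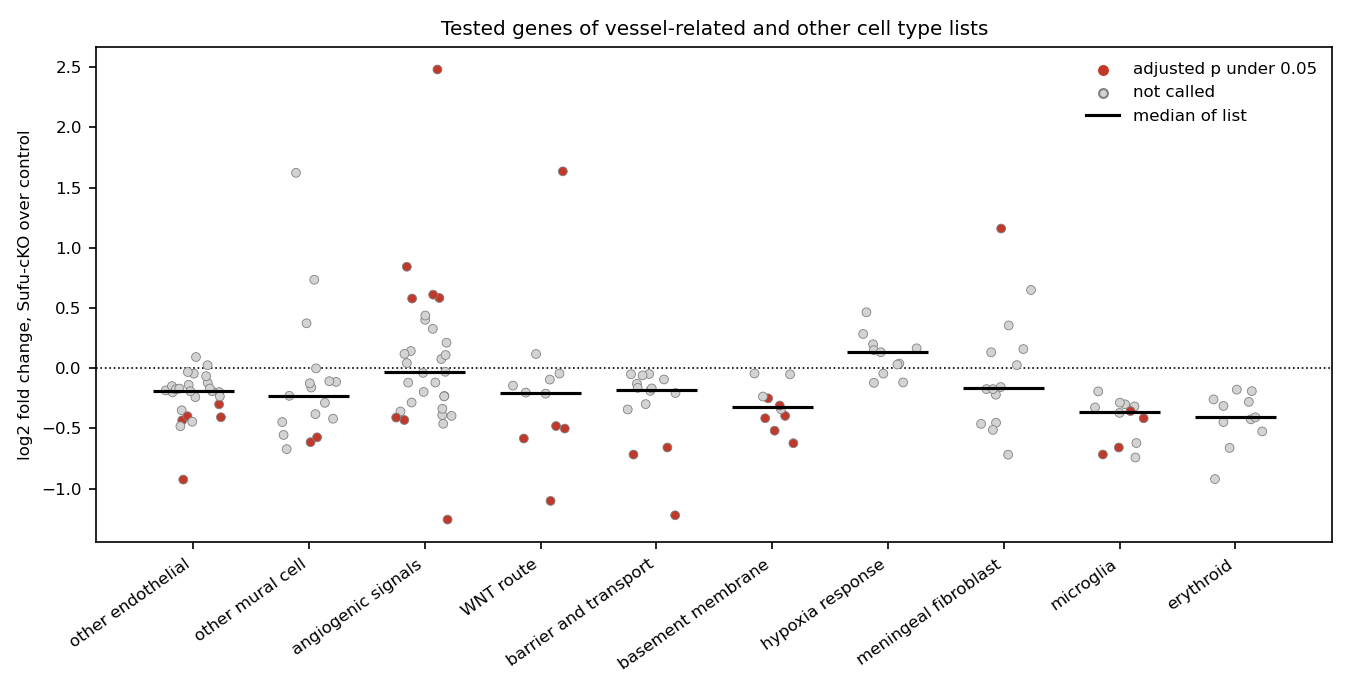
Log2 fold change, Sufu-cKO over control (vertical axis), of the tested genes of 6 vessel-related lists and 4 other lists, 1 point a gene, red where the adjusted p was under 0.05, with a line at the median of each list. Called genes of the endothelial, mural, barrier and basement membrane lists all lie below 0. The angiogenic list has called genes on both sides, from 2.48 (Pdgfa) to -1.26 (Vegfc).

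Signals and receptors listed for angiogenesis were called in both directions. Of 30 ligands, receptors and partners of angiogenesis, 5 were called higher and 3 lower, with a median of -0.034. Over all tested genes, 5.34% were called higher and 5.64% lower. At an unadjusted p under 0.05, 5 of the 30 were higher and 7 lower, beside 1780 and 1682 of all 15382 tested genes. DESeq2 called 5 of the 30 higher and 6 lower, and 2124 of the 15382 in either direction. Pdgfa, a ligand of the PDGF family that acts mainly on PDGFRA, had 34.6, 50.1, 40.9 and 30.2 CPM in Sufu-cKO, against 5.90, 5.94, 7.14 and 8.78 CPM in control. It rose by 2.48 on the log2 scale (SE 0.18, edgeR adjusted p = 1.36e-05). Pdgfb, whose product is the ligand of PDGFRB, was not called, at 8.96 ± 1.46 CPM in Sufu-cKO and 10.5 ± 1.30 CPM in control (log2 fold change -0.23, adjusted p = 0.363).

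Within the VEGF family, the ligand gene Vegfa was not called, with 97.9, 75.4, 73.8 and 73.0 CPM in Sufu-cKO and 72.6, 81.6, 63.6 and 77.1 CPM in control (log2 fold change 0.12, SE 0.10, adjusted p = 0.581). Vegfc, which acts on VEGFR3 and on VEGFR2, fell to 9.86 ± 1.51 CPM in Sufu-cKO, against 23.6 ± 1.69 CPM in control (log2 fold change -1.26, adjusted p = 2.84e-05). Pgf, placental growth factor and a ligand of VEGFR1, rose to 4.77 ± 0.472 CPM in Sufu-cKO, against 3.20 ± 0.459 CPM in control (log2 fold change 0.58, adjusted p = 0.0326). Thus the receptor Kdr was lower while its main ligand was not shown to differ. Of the VEGF co-receptors, Nrp1 fell and Nrp2 rose. Nrp1 had 58.9, 74.3, 76.0 and 69.4 CPM in Sufu-cKO and 89.7, 99.7, 98.9 and 81.9 CPM in control (log2 fold change -0.41, adjusted p = 0.0107). Nrp2 had 134.6, 138.5, 179.8 and 142.7 CPM in Sufu-cKO and 97.3, 92.6, 86.7 and 113.4 CPM in control (log2 fold change 0.61, adjusted p = 0.00373). Both neuropilins are also semaphorin receptors of neurons and progenitors, so these levels are not those of vessels alone.

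Apelin and its receptor, a pair that sprouting endothelium uses, went in opposite directions. Apln had 30.7, 30.7, 29.0 and 33.1 CPM in Sufu-cKO, against 21.3, 20.9, 21.5 and 18.7 CPM in control (log2 fold change 0.58, SE 0.076, adjusted p = 0.000386). Aplnr had 43.3, 41.3, 43.2 and 37.1 CPM in Sufu-cKO, against 61.9, 43.7, 56.6 and 60.0 CPM in control (log2 fold change -0.43, SE 0.10, adjusted p = 0.0185). The groups did not overlap for either gene, and for Aplnr the gap to Cont_345 was small. Esm1, a proteoglycan of tip cells at the front of sprouts, rose to 2.12 ± 0.358 CPM in Sufu-cKO, against 1.17 ± 0.297 CPM in control (log2 fold change 0.84, adjusted p = 0.0319). With single samples removed, Esm1 and Pgf each lost the call in 5 of 8 refits, and Aplnr lost it without Cont_294 or Cont_365. The list's count called higher was 3 without Mut_337, Cont_345 or Cont_365. The angiopoietin genes Angpt1 and Angpt2, ligands of TIE2, had log2 fold changes of 0.40 (adjusted p = 0.330) and 0.44 (adjusted p = 0.222).

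**Figure D4:**
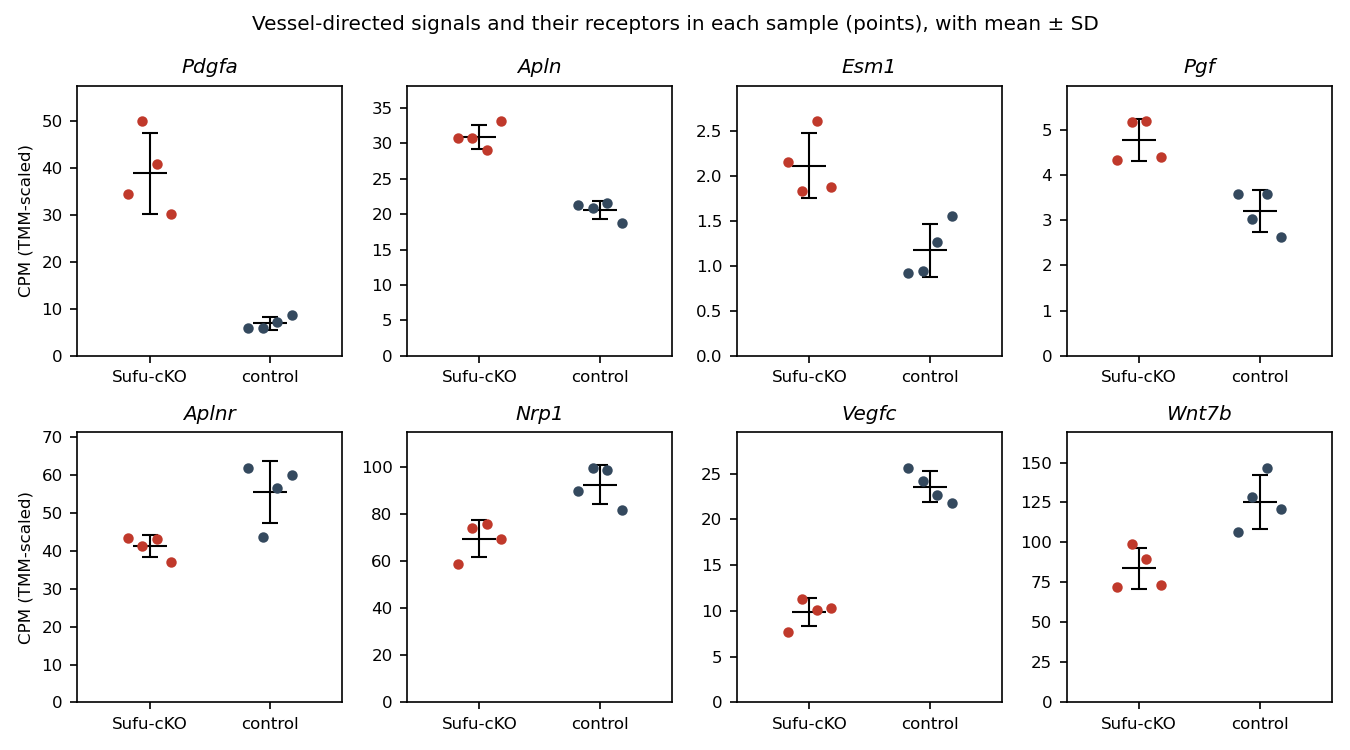
CPM of 8 signals and receptors from the angiogenic and WNT lists (vertical axes, starting at 0) in the 4 Sufu-cKO and the 4 control samples, with the mean ± SD. Pdgfa, Apln, Esm1 and Pgf are higher in every Sufu-cKO sample than in any control sample, and Aplnr, Nrp1, Vegfc and Wnt7b are lower in every one. These 8 were chosen among called genes after their values were seen.

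In the WNT route to brain vessels, 4 of 11 tested genes were called lower and 1 higher, with a median of -0.20. The shares over all tested genes were 5.64% lower and 5.34% higher. The ligands Wnt7b and Wnt7a both fell. Wnt7b had 72.3, 99.2, 89.8 and 73.6 CPM in Sufu-cKO and 106, 128, 147 and 121 CPM in control (log2 fold change -0.58, adjusted p = 0.0120). Wnt7a averaged 27.3 ± 4.40 CPM in Sufu-cKO and 38.1 ± 4.03 CPM in control (log2 fold change -0.48, adjusted p = 0.0192). Mut_295, at 33.0 CPM, overlapped the control range of Wnt7a, and the call of Wnt7a was lost without Mut_317, Cont_345 or Cont_365. Lrp5, a WNT co-receptor, fell by 0.50 on the log2 scale, and Lef1, a transcription factor and target of the pathway, fell by 1.10. Ndp, which encodes norrin, a ligand of FZD4 on endothelium, rose to 9.74 ± 1.64 CPM in Sufu-cKO, against 3.12 ± 1.14 CPM in control (log2 fold change 1.64, adjusted p = 0.000657). Wnt7a and Wnt7b are expressed by neural progenitors and Lrp5 and Lef1 by several cell types, and the cell type in which each RNA differed was not measured.

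Barrier and transport genes had 3 called lower and 0 higher of 14 tested (5 and 0 at an unadjusted p under 0.05), with a median of -0.18. Of all tested genes, 5.64% were called lower. Cav1, the caveolae protein, fell by 1.22 on the log2 scale, to 22.5 ± 3.44 CPM in Sufu-cKO, against 52.5 ± 10.1 CPM in control. The cell type in which Cav1 RNA differed was not measured. Slco1c1, a thyroid hormone transporter of brain endothelium and choroid plexus, fell by 0.72, and Ocln, the tight junction protein occludin, fell by 0.66. The count was 1 without Mut_317 or Cont_365. Slc2a1, the barrier's glucose transporter, had 115 ± 17.4 CPM in Sufu-cKO and 132 ± 4.75 CPM in control (adjusted p = 0.275). Mfsd2a, the lipid transporter of barrier endothelium, had 29.5 ± 2.62 CPM in Sufu-cKO and 36.3 ± 4.82 CPM in control (adjusted p = 0.0855). Plvap, a marker of leaky and immature vessels, had 11.1 ± 1.86 CPM in Sufu-cKO and 12.4 ± 0.717 CPM in control (adjusted p = 0.512).

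Of 10 basement membrane genes, 6 were called lower and 0 higher (7 and 0 at an unadjusted p under 0.05), with a median of -0.33. By comparison, 5.64% of all tested genes were called lower. Nid2, which links laminin to collagen networks, had 64.3, 58.6, 66.2 and 59.1 CPM in Sufu-cKO, against 89.9, 86.6, 89.4 and 89.9 CPM in control. The groups were far apart for Nid2 (log2 fold change -0.52, SE 0.058, adjusted p = 0.000123). Col4a1 and Col4a2, the type IV collagen chains of every vessel wall, fell by 0.42 (adjusted p = 0.0192) and 0.40 (adjusted p = 0.0353). Col4a1 was lowest in Mut_340, at 239 CPM, against 299 to 348 CPM in the rest of Sufu-cKO and 377 to 429 CPM in control. The laminin chains Lamb1, Lama5 and Lama4 fell by 0.31, 0.62 and 0.25. The count called was 2 without Mut_317 or Cont_365 and 3 without Cont_345. Pial and meningeal cells lay down the same proteins. Genes of the response to low oxygen had 0 called in either direction of 11 tested by edgeR, with a median of 0.13. At an unadjusted p under 0.05 there were 1 higher, Egln3, and 1 lower, Kdm3a, and DESeq2 called 1 higher. Egln3, named with its values known, had a log2 fold change of 0.28 (edgeR adjusted p = 0.0667). Of the 11 values, 3 were below 0, and edgeR called 1 gene higher without Mut_295 or Cont_365. The list's most abundant genes were Ldha and Kdm3a. Ldha, the glycolytic enzyme lactate dehydrogenase A, had 538.1 ± 52.8 CPM in Sufu-cKO and 524 ± 48.3 CPM in control. Kdm3a, a histone demethylase, had 229.5 ± 10.7 CPM in Sufu-cKO and 249.1 ± 7.77 CPM in control.

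Over the 6 lists together, 23 of 108 tested genes were called lower (21.3%) and 6 higher (5.56%), beside 5.64% and 5.34% of all tested genes. Leaving out 1 sample at a time, between 11 and 24 were called lower, with 11 without Cont_365 and 12 without Mut_317. The lists were chosen with earlier results of these data known, so these shares describe the lists and are no test of them.

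Other cell types that reach the forebrain from outside, or lie at its edge, were read in the same way, and 0 of their listed genes were without counts. Over all tested genes, 5.64% were called lower, 48.2% had values below 0 and 10.9% were lower at an unadjusted p under 0.05. Of 12 microglia and macrophage genes, 4 were called lower (Pf4, P2ry12, Csf1r and Cx3cr1) and all 12 values were below 0. Their sum was 52.5 to 69.4 CPM in Sufu-cKO and 72.8 to 90.5 CPM in control. The microglial calls dropped to 0 without Mut_317, Mut_340, Cont_345 or Cont_365, to 1 without Cont_294 and to 2 without Mut_295. Red blood cell genes, led by the embryonic globin genes Hbb-y and Hba-x, had 0 of 11 called by edgeR, all 11 values below 0, and sums of 3084 to 3547 CPM in Sufu-cKO and 3577 to 4715 CPM in control. At an unadjusted p under 0.05, 4 of them were lower, and DESeq2 called 2 lower. The edgeR count was 1 lower without robust estimation, with upper quartile factors, with no low-count filter, and without Mut_295 or Cont_345. Hbb-y had 2593 ± 106 CPM in Sufu-cKO and 3104 ± 379 CPM in control, without overlap (log2 fold change -0.26, edgeR adjusted p = 0.0602). Its adjusted p was between 0.0154 and 0.0643 over the other settings and between 0.0455 and 0.139 over the fits with 1 sample left out. The part of these cell types in the vessel results was not tested.

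Meningeal fibroblast genes had 1 of 14 called, Aldh1a2, an enzyme of retinoic acid synthesis, which was higher (log2 fold change 1.16, adjusted p = 0.0369). That call was lost without Mut_317, Mut_337, Mut_340, Cont_294, Cont_345 or Cont_370 and with no low-count filter. Col3a1, a fibrillar collagen gene and the list's most abundant, had 469 ± 155 CPM in Sufu-cKO and 461 ± 23.1 CPM in control. With all samples the list's median was -0.17 with 8 values below 0, and 5.34% of all tested genes were called higher. Without Mut_337, 7 of the 14 were called lower, with a median of -0.42 and 13 values below 0. That fit called 1423 of 15503 tested genes in either direction. Pial tissue carries the vessels that enter the brain. Mut_337, with the most meningeal RNA, also had the highest sums of the Sufu-cKO group for endothelial, pericyte, other mural and basement membrane genes. Its other mural sum included 38.0 CPM of Acta2, 15.6 CPM of Tagln and 22.4 CPM of Myl9, which were lower in the rest of that group. Rgs5 and Vtn, named with their values known, were not highest in Mut_337 (38.2 and 20.1 CPM, against 40.2 and 21.6 CPM in Mut_295). Pdgfrb, Mcam, Anpep, Cspg4, Heyl and Ednra were highest in Mut_337 within that group, and the remaining listed mural genes were not. Choroid plexus genes come from a vessel-rich tissue at the dorsal midline. Over all tested genes 5.64% were called lower, against 6 of these 10 choroid plexus genes (3 without Cont_294, Cont_345 or Cont_365). Their median was -1.28. The 4 with the smallest p were Calml4 (log2 fold change -1.08), the folate receptor gene Folr1 (-1.23), the serotonin receptor gene Htr2c (-1.77) and the bicarbonate transporter gene Slc4a5 (-1.52). The list's sums were 96.9 to 299 CPM in Sufu-cKO and 537 to 819 CPM in control, with Mut_340, the lowest, also lowest of the Sufu-cKO group for 6 of the 8 endothelial genes and for Pdgfrb. How far differences in the dissected piece enter the vessel genes was not tested. With both Mut_337 and Mut_340 left out, a comparison added after the data were seen, Kdr (log2 fold change -0.30, adjusted p = 0.0334) and Vtn (-0.74, adjusted p = 0.0135) were still the 2 called of the 10.

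**Figure D5:**
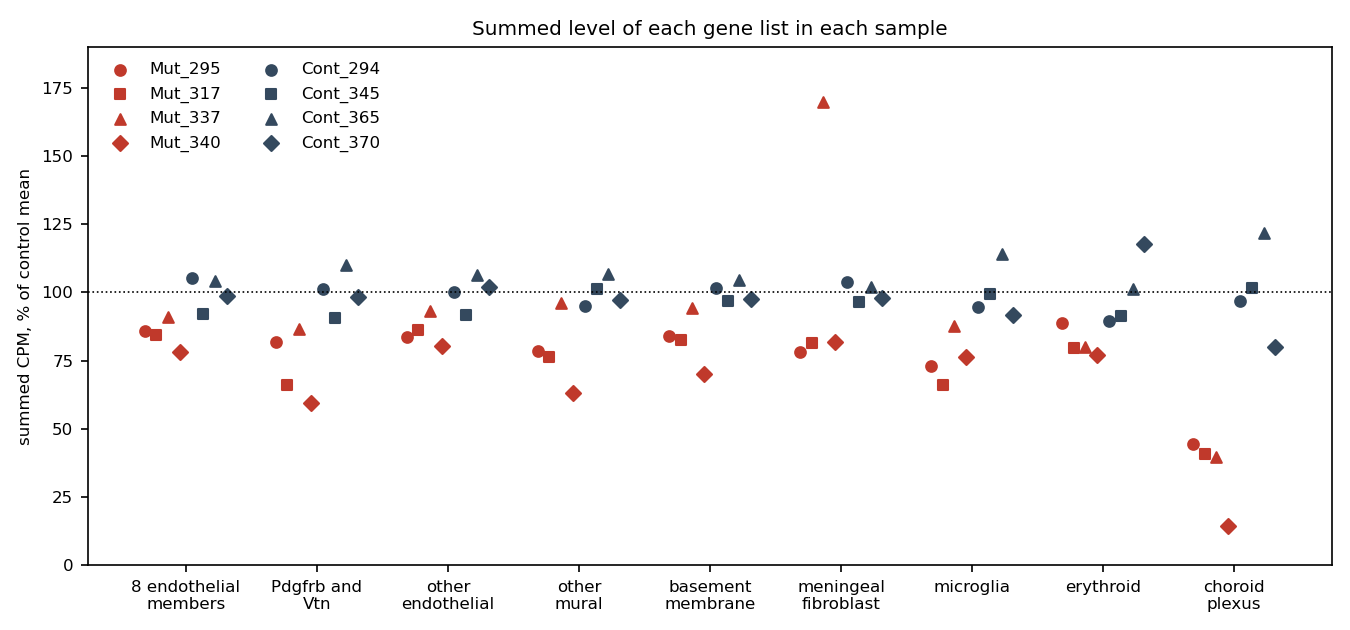
Summed CPM of each gene list in each sample, as a percentage of the control mean (vertical axis, dotted line at 100%), with Sufu-cKO samples in red and control samples in dark blue. The endothelial genes lie at 78.0% to 90.9% and the pericyte genes at 59.5% to 86.5% of the control mean in Sufu-cKO. Meningeal genes of Mut_337 reach 169.9%, and choroid plexus genes of Mut_340 fall to 14.4%.

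The plot of summed levels by sample sets these cell types beside the vessel genes. The 8 endothelial genes reached 85.9%, 84.4%, 90.9% and 78.0% in the 4 Sufu-cKO samples, against 105.3%, 92.1%, 104% and 98.7% in the 4 control samples. Vtn and Pdgfrb together reached 81.7%, 65.9%, 86.5% and 59.5% in Sufu-cKO, against 101.2%, 90.5%, 110% and 98.3% in control. In both sums, Mut_337 was the highest and Mut_340 the lowest Sufu-cKO sample, and Cont_345 was the lowest control sample. A list of 8 neuron genes, which are not vessel genes, reached 108.7%, 110%, 108.4% and 121.1% in Sufu-cKO, against 92.3%, 99.95%, 107.6% and 100.1% in control. Over all tested genes, 5.34% were called higher and 5.64% lower. Of the 8 neuron genes, 3 were called higher and 0 lower (4 and 0 at an unadjusted p under 0.05). They were Dcx, a microtubule protein of young neurons (log2 fold change 0.47, adjusted p = 0.00156), Tbr1, a transcription factor of deep layer neurons (0.29, adjusted p = 0.00656), and Gap43, a growth cone protein (0.27, adjusted p = 0.0421). The lowest Sufu-cKO sum lay just above the highest control sum, and Gap43 lost its call in 7 of 8 refits with single samples removed. The 10 dorsal progenitor genes summed to 114.4%, 114.8%, 109.5% and 112.8% in Sufu-cKO, against 100.4%, 105.4%, 96.7% and 97.5% in control. Of these 10, 4 were called higher and 4 lower, with a median log2 fold change of -0.18. The sum was thus higher while 6 of the 10 values were below 0. A gene's CPM is its count relative to the size of its library, scaled here for library composition. The part of the higher neuron and progenitor sums in the vessel levels was not tested.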

How the data were processed

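Dorsal forebrain RNA of 8 samples, 4 of each genotype, was extracted with a Qiagen RNeasy Mini kit and made into Illumina TruSeq Stranded mRNA libraries, per the labels' protocols. STAR 2.4.2a aligned the reads and the build was GRCm38, per the submitters' processing notes. For the counting program, its strand setting and the annotation release, the sources used here give nothing. Raw counts per gene, as deposited by the authors, were the input of every test. In a further deposited table the authors give a normalised signal, which is each count over 1 size factor per sample. That table also holds the authors' fold change, with Sufu-cKO on top, and their p-value and false discovery rate, from a program not named in the sources used here.

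Genotype labels gave the groups. They do not state whether samples were separate embryos or litters, so the spread behind each p-value may be technical. A chi-square test of counts found more than sampling noise between every pair of samples within a group, and each sample was counted once. Value columns that matched no sample numbered 0, and 1 gene ID that a spreadsheet had turned into a formula was restored.

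The analysis used R 4.3.3 and edgeR 4.0.16. After filterByExpr (minimum count 10, minimum total 15), 15382 of 25299 genes with any count were tested, with 99.94% of counts. Libraries were scaled with TMM. Genotypes were compared by a robust quasi-likelihood F-test, 2-sided, and p-values were adjusted by Benjamini-Hochberg over all tested genes. "Called" means an adjusted p under 0.05, and every adjusted p of a gene is from this fit unless another tool is named. Fold changes have Sufu-cKO in the numerator. The biological coefficient of variation was 12.8%. Ratios within samples were compared with an exact permutation test over 70 splits. Motifs were searched in RefSeq promoter windows without the bases after the start site. Protein sequences were not used here.

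The 10 genes and the 15 gene lists were chosen with earlier results of these data known. By rule, each list gave up to 4 called genes of smallest p, and its most abundant genes where fewer than 2 were called. Called genes outside the rule were named with their values known. The 15 genes most like the endothelial mean and the 5 most like each of Pdgfrb and Vtn were also named. Vegfd and Adgra2 were found under older symbols. Alternatives were other scalings (DESeq2 size factors, upper quartile, library totals), no filter, a filter of 1 CPM in 4 samples, DESeq2 1.42.0, limma-voom (limma 3.58.1), no robust estimation and each sample left out. Removal of both Mut_337 and Mut_340 was added after the data were seen.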

Additional observations from a re-analysis of the deposited data

Results flagged for a closer look

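In each group of 4 samples, the gap between the highest or lowest sample and its nearest neighbour was set against the range of the group. Of 158 groups of values examined, 14 (8.86%) had a gap above Dixon's 95% critical value, and chance alone gives about 1 in 20. Among the vessel genes, Egfl7 was at 23.97 CPM in Mut_295, against 18.06 to 18.84 CPM in the other Sufu-cKO samples. Pdgfrb was at 39.41 CPM in Cont_345, against 44.42 to 44.76 CPM in the other control samples. The ratio of Pdgfrb to Pecam1 was 1.046 in Cont_370, against 0.9177 to 0.9351 in the other control samples.

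Among Sufu-cKO samples, Mcam was at 49.07 CPM in Mut_340 (56.42 to 57.91 CPM elsewhere), Col3a1 at 701.4 CPM in Mut_337 (377.3 to 404.1 CPM elsewhere) and Hbb-y at 2751 CPM in Mut_295 (2529 to 2553 CPM elsewhere). Summed CPM were 1646 for meningeal fibroblast genes in Mut_337 (758.6 to 793.1 elsewhere), 96.94 for choroid plexus genes in Mut_340 (266.7 to 298.8 elsewhere) and 2959 for neuron genes in Mut_340 (2647 to 2687 elsewhere). Among control samples, Clec14a was at 22.56 CPM in Cont_370 (18.48 to 19.1 CPM elsewhere), Ndp at 4.828 CPM in Cont_370 (2.443 to 2.607 CPM elsewhere) and Htr2c at 15.61 CPM in Cont_370 (21.36 to 22.26 CPM elsewhere). Nid2 was at 86.62 CPM in Cont_345 (89.44 to 89.91 CPM elsewhere), and Kdm3a at 260.7 CPM in Cont_345 (244.8 to 246 CPM elsewhere).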

How the results depend on the processing

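Kdr and Vtn were called lower in all 8 fits with 1 sample left out and with all 8 other settings tried. Over the fits with 1 sample left out, 2 to 4 of the 10 vessel genes were called lower and 2 to 4 in all; the count of 4 came without Mut_295, when Tie1 (-0.43) and Egfl7 (-0.39) were also called. Genes called in all numbered 1079 to 1836 (542 to 897 lower and 537 to 939 higher), and listed vessel-related genes 15 to 28 in all and 11 to 24 lower. With both Mut_337 and Mut_340 removed, an alternative chosen after seeing the data, 2 of the 10 vessel genes were called, 514 genes were higher, 1108 were called in all, and 14 listed vessel-related genes were lower of 18 called. Col3a1, at 0.026 with all samples, was at -0.21 in that fit and at -0.022 with limma-voom, and over single left-out samples it lay between -0.24 and 0.11. Ldha, at 0.038, lay between -0.026 and 0.095. The cause was not tested. Other scalings moved the median of all genes by less than 0.02. No paired analysis was possible because the 2 genotypes share no sample number. With 4 samples a group, the widest intervals, as for Pdgfrb, allow both no difference and a decrease of 0.59 on the log2 scale.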
